A study of Mus musculus with 13 samples.

Results

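Testes from mice labelled as Wfdc15a knockouts (KO) of title number 2 were compared with testes from wild-type (WT) and heterozygous (Het) mice of the same title number. The members were the 9 libraries whose titles carry the number 2, of 13 libraries in the series: KO2 replicates 4 to 6, WT2 replicates 1 to 3 and Het2 replicates 2 to 4. The 6 WT2 and Het2 libraries were pooled as the controls, as the design text pools WT and heterozygous mice. One heterozygous and 3 KO libraries of title number 1 (Het1 and KO1) were left out and are used only where a comparison names them. All 9 mice were adult, 15 weeks old, and RNA of the whole testis without its outer tunica was made into Smart-seq2 libraries from about 2 ng of total RNA with 11 cycles of PCR. The sources used here do not give the strain, the design of the knockout allele or what the title number stands for. Each library was taken as 1 mouse because the design text counts mice, and where that does not hold the p-values measure only the spread between libraries.

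Wfdc15a codes for a small secreted protein of the WFDC family, whose whey acidic protein fold is found in several inhibitors of serine proteases. In the testis, germ cells develop inside tubules that Sertoli cells line, and Leydig cells between the tubules make testosterone. After meiosis round spermatids build the acrosome and then elongate, replace their histones with transition proteins and protamines, and store messenger RNA that is translated late. In RNA of a whole testis, fewer cells of a type and less RNA per cell cannot be told apart, and every value is a share of the library's reads.

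Values are RPM, a gene's reads scaled to 1 library total common to all libraries, taken back from the deposited log2 values. Differences were tested with limma on log2(RPM + 1) over the 16139 genes that averaged 1 RPM or more across the 9 libraries, with Benjamini-Hochberg adjusted p-values and a threshold of 0.05, and a gene past it is called higher or lower. Reads in genes came to 4.22 to 8.23 M in KO2 and 5.64 to 10.1 M in the controls, so that 1 read was worth 0.0899 to 0.222 RPM. Where a gene had no reads, the limit is 3 reads (0.27 to 0.665 RPM across the libraries), for counting error only. The 10 most abundant genes held 3.23% to 3.42% of the reads in KO2 and 3.78% to 4.1% in the controls, ranges that do not overlap. In the table all 620 checked pairs of a gene lying inside another had at least as many reads for the outer gene in all 13 libraries, on either strand, so values of overlapping genes share reads and are named as such below.

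The targeted gene did not separate the libraries labelled KO of number 2 from their controls. Wfdc15a, which lies at 164198863 to 164200130 of chromosome 2 (mm10, minus strand), was at 85.8, 57.5 and 53.5 RPM in WT2 replicates 1 to 3 and at 78.1, 58.2 and 69.6 RPM in Het2 replicates 2 to 4. It was at 54.1, 48.1 and 81.3 RPM in KO2 replicates 4, 5 and 6. The groups overlap, and KO2 replicate 6 stands above 5 of the 6 controls. The log2 difference was -0.15 (SE 0.18, 95% interval -0.52 to 0.23, two-sided exact permutation p = 0.5 over 84 splits, of which the smallest possible p is 0.0119). A value per gene cannot show which exons the reads came from, so directions below refer to libraries by their KO label, and a changed transcript of normal abundance could not be seen.

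Between KO2 and the controls 1549 of 16139 genes passed the threshold, 9.6% of those tested. Of these 895 (5.55%) were higher and 654 (4.05%) lower, and 203 of the higher and 129 of the lower differed at least 2-fold. In 2376 genes (14.7%) the 3 KO2 libraries did not overlap the 6 controls, among them 1340 of the called genes. The balance of directions depended on the scaling. The median log2 difference of all genes was 0.16 on RPM as deposited. Median-of-ratios scaling moved the median by -0.14 and called 346 genes higher and 959 lower, so that 26.5% of calls were higher instead of 57.8%. With quantile normalization the shift was also -0.14 and 452 genes were higher and 813 lower (35.7% higher). All 654 lower genes stayed lower with median-of-ratios scaling and 606 of them with quantile normalization, whereas 346 and 392 of the 895 higher genes stayed higher.

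The choice of controls also mattered for the higher genes. Against WT2 alone 199 genes were higher and 372 lower, and against Het2 alone 965 were higher and 541 lower. Without KO2 replicate 5 the counts fell to 269 and 403, without KO2 replicate 4 to 422 and 534, without KO2 replicate 6 to 527 and 426, and without Het2 replicate 3 to 580 and 530. The 2 directions lay at different levels of expression. Among the 260 genes with a control mean above 500 RPM 38.1% were lower and 4.62% higher, and among the 5036 genes between 20 and 100 RPM 3.85% were lower and 8.44% higher. On the X chromosome, of 595 genes tested, 8.07% were higher and 5.04% lower, with a median log2 difference of 0.27.

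**Figure D1:**
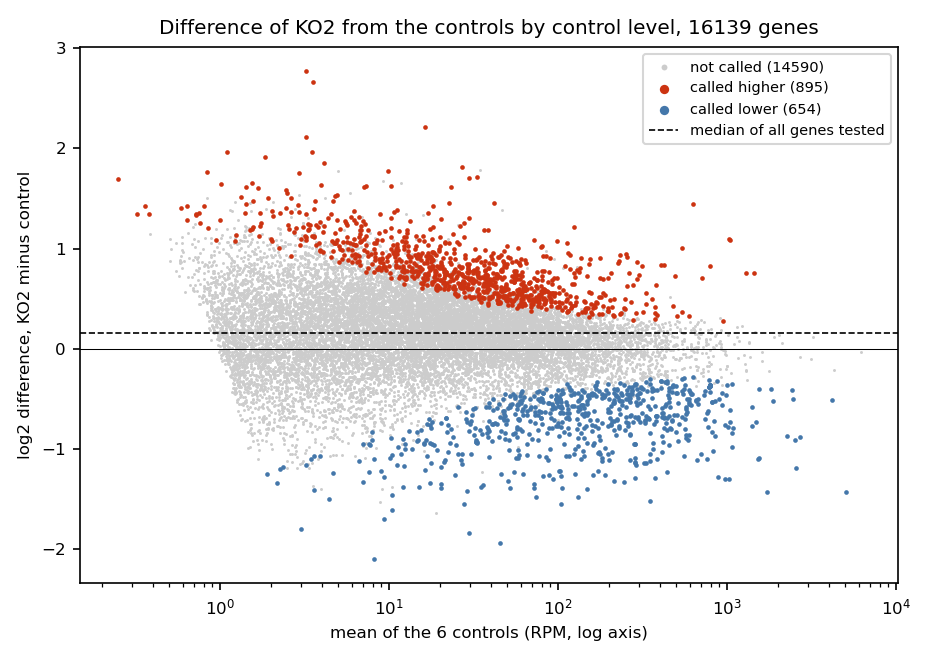
Log2 difference of KO2 from the controls (y axis) against the mean of the 6 controls in RPM (x axis, log scale), 1 point a gene, 16139 genes. Red points are the 895 genes called higher and blue points the 654 called lower by limma. The blue points lie mostly at high levels and the dashed line marks the median of all genes at 0.16.

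Transcripts of elongating spermatids were lower in KO2, with the protamines among the largest falls picked by the naming rule given below. Of 31 genes of this list, all of which were tested, 26 fell and none rose (83.9% lower, against 4.05% of all genes), and their median log2 difference was -0.87. The 3 KO2 libraries lay below all 6 controls in 26 of the 31 (83.9%, where 14.7% of all genes did not overlap in either direction). No other list of the 34 had a median below -0.1 on RPM as deposited. The list was written with results of the whole series known, so its direction is not independent evidence.

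The protamines, which pack sperm DNA, and the transition proteins that precede them fell together. Prm2 was at 4309 to 6235 RPM in the 6 controls (median 4796) and at 2510, 1650 and 1556 RPM in KO2 replicates 4, 5 and 6. Each KO2 library lay below every control (log2 difference -1.43, SE 0.14, adjusted p = 8.17e-06). Prm1 was at 1317 to 2480 RPM in the 6 controls (median 1435) and at 659, 516 and 699.5 RPM in KO2 replicates 4, 5 and 6. Its KO2 libraries lay together below the controls, of which WT2 replicate 1 and Het2 replicate 2 stood apart above the other 4 (log2 difference -1.43, SE 0.19, adjusted p = 0.000105). Tnp1, a transition protein, was at 773 to 1500 RPM in the 6 controls (median 861) and at 410.1, 359 and 438 RPM in KO2 replicates 4, 5 and 6 (log2 difference -1.30, SE 0.17, adjusted p = 0.000106). The same 2 controls were highest for Tnp1, and again no KO2 library reached the controls. Tnp2 differed by -1.29 (adjusted p = 0.000105) and Prm3 by -0.87 (adjusted p = 0.011) on the log2 scale. Prm3 was not called without KO2 replicate 5 (adjusted p = 0.0604).

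Genes of the sperm tail and of late spermatid metabolism fell in the same list. Oaz3, the testis antizyme that controls polyamine synthesis, was at 2364 to 2821 RPM in the 6 controls (median 2535) and at 1311, 1179 and 905 RPM in KO2 replicates 4, 5 and 6. Even the highest KO2 library lay far below the lowest control (log2 difference -1.19, SE 0.10, adjusted p = 8.17e-06). Smcp, a protein of the mitochondrial sheath of the sperm midpiece, was at 701 to 1116 RPM in the 6 controls (median 814) and at 416, 352 and 314 RPM in KO2 replicates 4, 5 and 6 (log2 difference -1.28, SE 0.13, adjusted p = 1.22e-05). Spata3, a testis-specific gene of late spermatids, was at 488 to 615 RPM in the 6 controls (median 558) and at 305, 258 and 238 RPM in KO2 replicates 4, 5 and 6 (log2 difference -1.07, SE 0.10, adjusted p = 8.17e-06). In all 3 genes KO2 replicate 4 was the highest of the KO2 libraries and still below every control. Akap4, the main protein of the fibrous sheath, differed by -0.88 (adjusted p = 0.000234), Odf1 of the outer dense fibres by -1.06 (adjusted p = 0.00034), and Tssk6, a kinase of late spermatids that overlaps Ndufa13 and Yjefn3, by -1.23 (adjusted p = 5.06e-05). The 5 members that did not pass were Akap3 (-0.22), Ropn1l (-0.06), Car4 (0.07), 4921510H08Rik (-0.08) and Dnajb7 (-0.39). The count of genes that fell in this list was 25 against WT2 alone, 26 against Het2 alone, 27 with median-of-ratios scaling, and 25, 23 and 26 without KO2 replicate 4, 5 or 6.

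**Figure D2:**
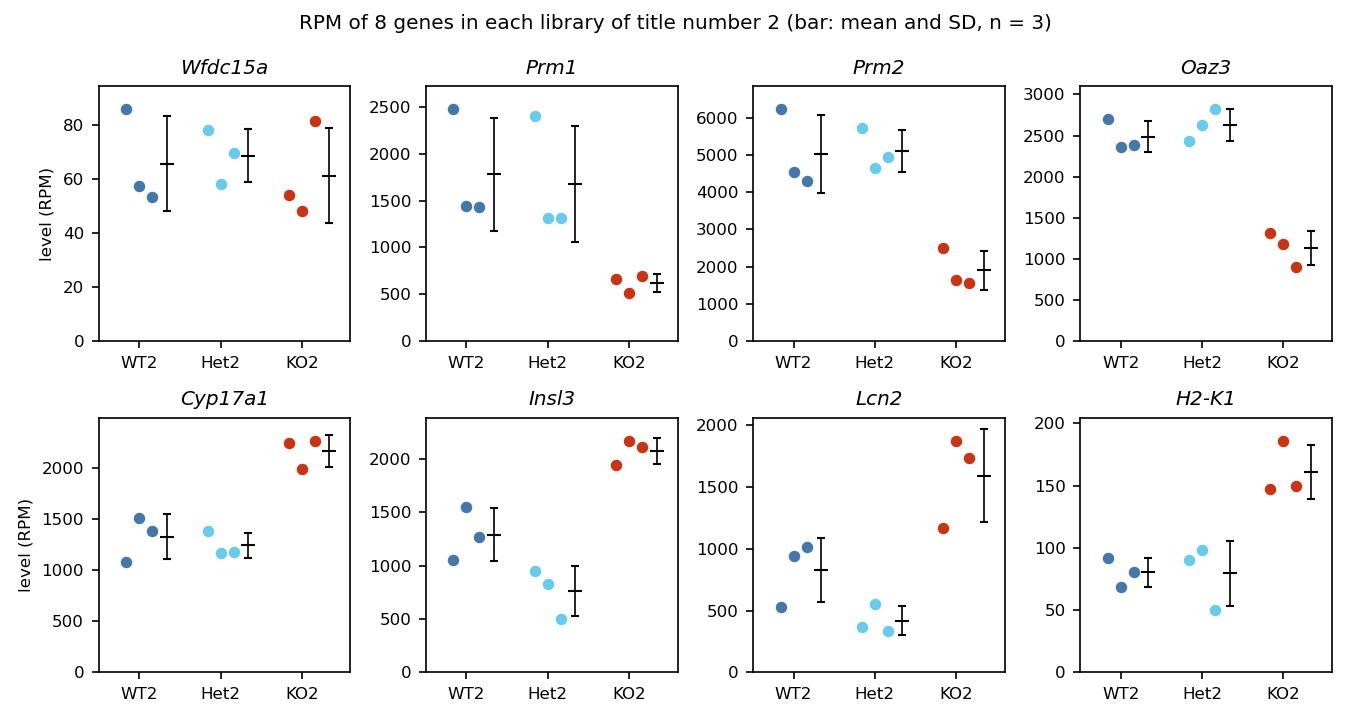
Level in RPM (y axis, from 0) of 8 genes in each library of WT2, Het2 and KO2 (x axis), with the mean and SD of each group (n = 3) as a bar beside the points. Wfdc15a overlaps between the groups, Prm1, Prm2 and Oaz3 are lower in each KO2 library than in any control, and Cyp17a1, Insl3, Lcn2 and H2-K1 are higher.

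Promoters of the genes that fell were set beside those of all genes, since they moved together. The 180 bases before the RefSeq start (GRCm38.p6) of both protamines, a transition protein, Smcp and Spata3 are shown, with capitals for TGANGTCA or TATAAA on either strand. The first is the cyclic AMP response element TGACGTCA with any base between TGA and GTCA, a motif known from promoters of spermatid genes, and this form was searched only after the sequences had been seen.
Prm1 (chr16:10796824-10797003, minus strand): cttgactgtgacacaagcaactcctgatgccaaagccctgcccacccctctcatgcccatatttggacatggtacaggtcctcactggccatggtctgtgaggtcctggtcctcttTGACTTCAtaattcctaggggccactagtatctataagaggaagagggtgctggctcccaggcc
Prm2 (chr16:10792106-10792285, minus strand): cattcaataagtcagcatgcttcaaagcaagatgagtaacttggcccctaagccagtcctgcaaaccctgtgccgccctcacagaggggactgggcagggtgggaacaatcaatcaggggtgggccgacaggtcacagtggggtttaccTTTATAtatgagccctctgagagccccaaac
Tnp1 (chr1:73015900-73016079, minus strand): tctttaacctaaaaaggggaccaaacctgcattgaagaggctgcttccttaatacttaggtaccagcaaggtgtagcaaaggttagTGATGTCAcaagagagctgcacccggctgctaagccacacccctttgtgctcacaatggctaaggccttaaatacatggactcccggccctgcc
Smcp (chr3:92589074-92589253, minus strand): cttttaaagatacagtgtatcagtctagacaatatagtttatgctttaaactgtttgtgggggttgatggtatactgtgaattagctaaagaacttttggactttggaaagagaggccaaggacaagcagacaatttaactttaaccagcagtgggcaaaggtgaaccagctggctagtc
Spata3 (chr1:86021765-86021944, plus strand): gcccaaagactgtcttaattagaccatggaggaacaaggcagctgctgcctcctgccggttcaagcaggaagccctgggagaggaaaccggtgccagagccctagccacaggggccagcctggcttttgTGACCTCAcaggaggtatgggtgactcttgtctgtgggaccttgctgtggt
In these windows Prm1, Tnp1 and Spata3 hold TGANGTCA, Prm2 holds TATAAA and Smcp holds neither. TGANGTCA was then counted over the 250 bases before the start, on both strands. Of the 22 elongating spermatid genes that fell and have a promoter in the table, 10 held it (45.5%). Prm1, Tnp1 and Spata3 are among the 10, and their sequences were seen before this form was searched. Of all 26 elongating spermatid genes with a promoter, fallen or not, 11 held it (42.3%), a share close to that of the genes that fell. TGANGTCA was in 104 of 425 genes called lower (24.5%) and 39 of 647 called higher (6.03%). It was in 917 of 10857 genes tested (8.45%) and 8.55% of all 27025 genes of the promoter table.

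At high levels of expression the shares were apart as well. Among genes with a control mean of at least 100 RPM TGANGTCA was in 27.6% of 272 called lower and in 8.85% of 1266 others. TGATGTCA, the form in Tnp1, was in 14.8% of genes called lower, 1.24% of genes called higher and 2.81% of genes tested. The full element TGACGTCA, also a form of TGANGTCA, was in 3.76%, 2.32% and 2.94% of the same sets, and in 0 of the 26 elongating spermatid genes with a promoter. Its first letters TGACG were in 24%, 28.7% and 28.3%, and TATAAA in 9.88%, 9.89% and 8.52%. Genes called lower had 1.38 windows each and genes tested 1.28. These shares describe letters in a window and carry no test.

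Of 28 genes of round spermatids and the acrosome 3 fell and none rose (10.7% lower, against 4.05% of all genes). The median was -0.04, with 5 lower and 1 higher at an unadjusted p under 0.05, and 3 and 0 by limma-voom. Tssk2, a spermatid kinase, was at 544 to 643 RPM in the 6 controls (median 573) and at 428, 331 and 369 RPM in KO2 replicates 4, 5 and 6, below the controls in each (log2 difference -0.63, SE 0.10, adjusted p = 0.000439). Actrt1 and Actl7a, actin-related proteins of the spermatid head, differed by -0.88 (adjusted p = 0.0103) and -0.37 (adjusted p = 0.0255). Actrt1 was not called against WT2 alone or without KO2 replicate 4 or 6 (adjusted p up to 0.0986). Actl7a was not called against WT2 alone, against Het2 alone, without a filter on low values, with quantile normalization, without Het2 replicate 3 or without KO2 replicate 5 or 6 (adjusted p up to 0.122). Acrv1, an acrosome protein, was at 266 to 342 RPM in the 6 controls (median 306) and at 310, 313 and 279 RPM in KO2 replicates 4, 5 and 6, with full overlap (log2 difference -0.02 (adjusted p = 0.915)). The falls numbered 1 against WT2 alone, 2 against Het2 alone, 5 with median-of-ratios scaling, and 2, 2 and 1 without KO2 replicate 4, 5 or 6.

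Of 20 genes of pachytene and diplotene spermatocytes 1 fell and 1 rose (median 0.06, 5% higher and 5% lower, against 5.55% and 4.05% of all genes). The fall was Pgk2, the germ-cell phosphoglycerate kinase, at 966 to 1154 RPM in the 6 controls (median 1008) and 829.8, 676 and 553 RPM in KO2 replicates 4, 5 and 6 (log2 difference -0.61, SE 0.11, adjusted p = 0.00179). Mov10l1, a helicase of the piRNA pathway, differed by 0.53 (adjusted p = 0.0367). Mov10l1 was not called against Het2 alone, without a filter on low values, with median-of-ratios scaling, with quantile normalization, without WT2 replicate 1, 2 or 3 or without KO2 replicate 4 or 5 (adjusted p up to 0.197). Among 24 genes of early meiosis only 1 passed and fell (4.17% lower, against 4.05% of all genes), a share near the background. It was Syce2 of the synaptonemal complex, with a log2 difference of -0.49 (adjusted p = 0.0293), and it overlaps Gcdh. Syce2 was not called against WT2 alone, without a filter on low values, without WT2 replicate 1, without Het2 replicate 2 or 3 or without KO2 replicate 5 or 6 (adjusted p up to 0.174). Sycp3, of the same complex and overlapping Chpt1, did not pass at 0.19 (adjusted p = 0.404).

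In differentiating spermatogonia 2 of 12 genes rose (16.7% higher, against 5.55% of all genes). Kit, a receptor listed here for these cells and for mast cells, was at 32.7 to 62 RPM in the 6 controls (median 47). In KO2 replicates 4, 5 and 6 it was at 97.9, 82.1 and 80.8 RPM (log2 difference 0.93, SE 0.19, adjusted p = 0.00443). All 3 KO2 libraries stood above the highest control, and the call held under each alternative run. Which cells the Kit reads came from was not tested. Ccnd2, a D-type cyclin, differed by 1.23 (adjusted p = 0.0188) with overlap between the groups. Ccnd2 was not called against WT2 alone, without a filter on low values, with quantile normalization or without KO2 replicate 4 or 5 (adjusted p up to 0.156). None of 13 genes of undifferentiated spermatogonia passed by limma or limma-voom, with 3 higher at an unadjusted p under 0.05. Zbtb16, a marker of these cells, was at 2.52 to 5.04 RPM in the 6 controls (median 2.91) and 3.32, 13.5 and 7.23 RPM in KO2 replicates 4, 5 and 6 (0.97 (adjusted p = 0.0875)), with KO2 replicate 4 near the controls and replicate 5 far above them. Gfra1, the receptor for GDNF, differed by -0.46 (adjusted p = 0.219) and Taf4b, a subunit of TFIID, by 0.48 (adjusted p = 0.11).

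Sperm axoneme genes, which build the microtubule core of the tail, gave no calls. None of 39 passed by limma or limma-voom, with 2 higher and 1 lower at an unadjusted p under 0.05, and the median was 0.06. Rsph1 of the radial spokes was at 1621 to 2453 RPM in the 6 controls (median 2081) and at 1894, 1896 and 3003 RPM in KO2 replicates 4, 5 and 6 (0.14 (adjusted p = 0.586)). Wdr96, now called Cfap43, overlaps Gsto1, Gsto2 and Itprip and differed by -0.13 (adjusted p = 0.362). Among 38 regulators of germ-cell transcripts and piRNA genes 3 rose and 2 fell (7.89% higher and 5.26% lower, against 5.55% and 4.05% of all genes), shares not far from the background. The rises were Piwil2 (0.41 (adjusted p = 0.0224)), Tdrd1 (0.49 (adjusted p = 0.0193)) and Mov10l1, all of the piRNA pathway and none of them called with median-of-ratios scaling. The falls were Fhl5, a spermatid partner of CREM (-0.40 (adjusted p = 0.00989), overlapping Gm11906), and Paip2, an inhibitor of poly(A)-binding protein (-0.52 (adjusted p = 0.00751), overlapping Slc23a1). Piwil2 was not called against WT2 alone, with median-of-ratios scaling or without KO2 replicate 4 or 5 (adjusted p up to 0.187). Tdrd1 was not called against WT2 alone, with median-of-ratios scaling or without KO2 replicate 4, 5 or 6 (adjusted p up to 0.123). Fhl5 was not called against WT2 alone (adjusted p = 0.0808). Paip2 was not called against WT2 alone or without KO2 replicate 5 (adjusted p up to 0.0688). The rises numbered 1 against WT2 alone, 2 against Het2 alone, 0 with median-of-ratios scaling, and 0, 0 and 4 without KO2 replicate 4, 5 or 6.

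Of 25 glycolysis genes 7 fell and 2 rose (8% higher and 28% lower, against 5.55% and 4.05% of all genes), with a median of -0.02. The share that rose lay near the background. The falls were Hk1, Gpi1, Aldoart1, Aldoart2, Gapdhs, Pgk2 and Pgam2, of which Aldoart1, Aldoart2, Gapdhs and Pgk2 are the forms of the germ line. Gapdhs, which is held in the fibrous sheath, was at 82.4 to 125 RPM in the 6 controls (median 112) and at 68.2, 60.9 and 50.7 RPM in KO2 replicates 4, 5 and 6, and no KO2 library reached a control (log2 difference -0.83, SE 0.15, adjusted p = 0.00168). Hk1, a hexokinase with a sperm form, was at 1303 to 1675 RPM in the 6 controls (median 1470) and at 1095, 824 and 779 RPM in KO2 replicates 4, 5 and 6 (log2 difference -0.73, SE 0.11, adjusted p = 0.000299, overlapping 2210417K05Rik), and Gpi1 differed by -0.72 (adjusted p = 0.000299). The rises were Ldhb (0.42 (adjusted p = 0.0492)) and Slc16a1 (0.67 (adjusted p = 0.024)), a lactate transporter, and neither was called with median-of-ratios scaling. The falls numbered 5 against WT2 alone, 5 against Het2 alone, 8 with median-of-ratios scaling, and 6, 4 and 5 without KO2 replicate 4, 5 or 6. Hk1, Gpi1, Gapdhs and Pgk2 were called in each alternative run. Aldoart2 was lost in 11 of 19 such runs (adjusted p up to 0.106 by limma). Among these were WT2 or Het2 alone and each KO2 library left out. Aldoart1 was not called against WT2 alone or without KO2 replicate 5 or 6 (adjusted p up to 0.11). Pgam2 was not called against Het2 alone, with quantile normalization or without KO2 replicate 5 (adjusted p up to 0.102). Ldhb was not called against WT2 alone, against Het2 alone, with pseudocount 0.25, without a filter on low values, with median-of-ratios scaling, with quantile normalization, without WT2 replicate 1 or 2, without Het2 replicate 2, 3 or 4 or without KO2 replicate 4, 5 or 6 (adjusted p up to 0.254). Slc16a1 was not called against WT2 alone, without a filter on low values, with median-of-ratios scaling, with quantile normalization or without KO2 replicate 4, 5 or 6 (adjusted p up to 0.142).

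Steroid-making genes of Leydig cells were higher. Of 19 tested members of the list 15 rose and none fell (78.9% higher, against 5.55% of all genes), and the median was 0.76. Cyp17a1, which makes androgen precursors, was at 1085 to 1515 RPM in the 6 controls (median 1283) and at 2246, 1988 and 2267 RPM in KO2 replicates 4, 5 and 6. Each KO2 library exceeded each control (log2 difference 0.76, SE 0.10, adjusted p = 0.000144). Cyp11a1, the side-chain cleavage enzyme that starts steroid synthesis, was at 196 to 298 RPM in the 6 controls (median 276) and at 431, 462 and 541 RPM in KO2 replicates 4, 5 and 6 (log2 difference 0.92, SE 0.14, adjusted p = 0.00041). Nr5a1, the nuclear receptor that drives these genes, was at 35.5 to 56.1 RPM in the 6 controls (median 38.2) and at 94, 76.8 and 70.2 RPM in KO2 replicates 4, 5 and 6 (log2 difference 0.95, SE 0.16, adjusted p = 0.000946, overlapping 4933433P16Rik). The groups were apart in both.

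Insl3, a peptide hormone of Leydig cells, was at 499.6 to 1550 RPM in the 6 controls (median 1002) and at 1941, 2171 and 2108 RPM in KO2 replicates 4, 5 and 6. The 3 KO2 libraries lay within a narrow range above a wide spread of controls (log2 difference 1.098, SE 0.22, adjusted p = 0.00488), and the gene overlaps Jak3, which has nearly the same values. Akr1cl, an aldo-keto reductase, was at 236 to 380.1 RPM in the 6 controls (median 318) and at 547, 555 and 549 RPM in KO2 replicates 4, 5 and 6 (log2 difference 0.83, SE 0.13, adjusted p = 0.000564). Star (0.85 (adjusted p = 0.0356)), Hsd3b1 (0.69 (adjusted p = 0.035)), Hsd17b3 (1.31 (adjusted p = 0.00211)) and the luteinizing hormone receptor Lhcgr (0.78 (adjusted p = 0.00827)) also rose. Star was not called against WT2 alone, without a filter on low values, with median-of-ratios scaling, by limma-voom, without WT2 replicate 3, without Het2 replicate 3 or 4 or without KO2 replicate 4 or 5 (adjusted p up to 0.227). Hsd3b1 was not called against WT2 alone, without a filter on low values, with median-of-ratios scaling, without WT2 replicate 1, without Het2 replicate 2 or 4 or without KO2 replicate 4, 5 or 6 (adjusted p up to 0.226). Lhcgr was not called without KO2 replicate 6 (adjusted p = 0.0505). The 4 members that did not pass were Hsd3b6 (0.17), Scarb1 (0.37), Srd5a1 (0.24) and Vcam1 (0.80). The number of Leydig genes that rose was 10 against WT2 alone, 14 against Het2 alone, 10 with median-of-ratios scaling, and 10, 11 and 11 without KO2 replicate 4, 5 or 6.

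Genes of cholesterol synthesis and uptake, which supply the substrate of steroids, were higher in part. Of 23 genes 7 rose and none fell (30.4% higher, against 5.55% of all genes). All 23 log2 differences were positive, with a median of 0.49. The median of all genes, 0.16, was positive too. Dhcr7, the last enzyme of cholesterol synthesis, was at 55.2 to 107 RPM in the 6 controls (median 83.6) and 111, 147 and 213 RPM in KO2 replicates 4, 5 and 6 (log2 difference 0.92, SE 0.20, adjusted p = 0.0062). Sc4mol differed by 0.69 (adjusted p = 0.0117) and Cyp51 by 0.40 (adjusted p = 0.0233). Dhcr7 was not called against WT2 alone or without KO2 replicate 6 (adjusted p up to 0.0698). Sc4mol was not called against WT2 alone or without KO2 replicate 5 or 6 (adjusted p up to 0.0663). Cyp51 was not called against WT2 alone, with median-of-ratios scaling, without Het2 replicate 3 or without KO2 replicate 4 or 5 (adjusted p up to 0.179). The count of rises was 0 against WT2 alone, 8 against Het2 alone, 3 with median-of-ratios scaling, and 2, 1 and 4 without KO2 replicate 4, 5 or 6, and 4 without Het2 replicate 3.

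Sertoli cell genes were higher in part, with WT2 replicates 2 and 3 nearer to KO2 than the other controls. Of 28 genes 6 rose and 1 fell (21.4% higher and 3.57% lower, against 5.55% and 4.05% of all genes). Positive differences numbered 27, and the median was 0.57, against 0.16 for all genes. Clu, an abundant secreted protein of Sertoli cells, was at 1190 to 1978 RPM in the 6 controls (median 1233) and at 2296, 2819 and 2116 RPM in KO2 replicates 4, 5 and 6. KO2 stood above the controls (log2 difference 0.76, SE 0.15, adjusted p = 0.00439), but WT2 replicates 2 and 3 held 1826 and 1978 RPM. Clu was not called against WT2 alone (adjusted p = 0.0519). Vim, an intermediate filament, was at 42.7 to 82.7 RPM in the 6 controls (median 56.9) and 113, 114 and 85.2 RPM in KO2 replicates 4, 5 and 6 (log2 difference 0.86, SE 0.19, adjusted p = 0.00791), and Gja1, a gap junction protein, differed by 0.60 (adjusted p = 0.00901). Wt1 (0.76 (adjusted p = 0.0111)), Cldn11 (0.61 (adjusted p = 0.0335)) and Ctsl (0.63 (adjusted p = 0.0498)) also rose, and the marker Sox9 did not pass (0.72 (adjusted p = 0.0989)). Vim was not called against WT2 alone or without KO2 replicate 5 (adjusted p up to 0.0871). Gja1 was not called against WT2 alone or without KO2 replicate 6 (adjusted p up to 0.0574). Wt1 was not called without KO2 replicate 4 or 5 (adjusted p up to 0.0851). Cldn11 was not called against WT2 alone, without a filter on low values, with median-of-ratios scaling, with quantile normalization, without WT2 replicate 1, without Het2 replicate 3 or 4 or without KO2 replicate 4 or 5 (adjusted p up to 0.227). Ctsl was not called against WT2 alone, with pseudocount 0.25, without a filter on low values, with median-of-ratios scaling, by limma-voom, without WT2 replicate 1, without Het2 replicate 2, 3 or 4 or without KO2 replicate 4 or 5 (adjusted p up to 0.299).

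Cldn3, a claudin of the blood-testis barrier, went the other way at 16.9 to 21.2 RPM in the 6 controls (median 19.6) and 12, 6.53 and 9.53 RPM in KO2 replicates 4, 5 and 6 (log2 difference -1.005, SE 0.21, adjusted p = 0.00546). It overlaps Wbscr25, which fell by 1.14 on the log2 scale, and reads of the pair cannot be told apart. Cldn3 was not called without KO2 replicate 5 (adjusted p = 0.0509). The count of Sertoli genes that rose was 1 against WT2 alone, 11 against Het2 alone, 4 with median-of-ratios scaling, and 3, 2 and 5 without KO2 replicate 4, 5 or 6, and 10 without WT2 replicate 2 and 11 without WT2 replicate 3. The median distance of the list from its control mean was 0.26 and 0.29 in WT2 replicates 2 and 3, from -0.27 to 0.08 in the other 4 controls and 0.41 to 0.59 in KO2. For the Leydig list it was -0.23 to 0.25 in the controls and 0.67 to 0.79 in KO2.

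The other somatic lists gave 1 to 3 calls each. Of 15 peritubular and smooth muscle genes none rose by limma or limma-voom (5 higher at an unadjusted p under 0.05), and 13 differences were positive. Actg2, listed here as a smooth muscle actin, went against most members and fell (6.67% lower, against 4.05% of all genes). It was at 251 to 295 RPM in the 6 controls (median 266). In KO2 replicates 4, 5 and 6 it was at 182, 172 and 150.3 RPM (log2 difference -0.67, SE 0.10, adjusted p = 0.000331). Which cells the Actg2 reads came from was not tested. Acta2, the usual marker of peritubular cells, was at 35.4 to 89.9 RPM in the 6 controls (median 44.6) and 47.6, 81.2 and 58.5 RPM in KO2 replicates 4, 5 and 6 (0.30 (adjusted p = 0.448)). Among 16 fibroblast genes Col3a1 rose, at 13.1 to 27.6 RPM in the 6 controls (median 16.3) and 33.5, 43 and 39.2 RPM in KO2 replicates 4, 5 and 6 (log2 difference 1.09, SE 0.21, adjusted p = 0.00371), and so did Dcn, a matrix proteoglycan (0.78 (adjusted p = 0.0125)), which makes 12.5% higher, against 5.55% of all genes. Dcn was not called against WT2 alone or without KO2 replicate 4 or 6 (adjusted p up to 0.123). Of 17 endothelial genes 2 rose and 1 fell (11.8% higher and 5.88% lower, against 5.55% and 4.05% of all genes). Cdh5, the cadherin of endothelial junctions, was at 0.0899 to 3.71 RPM in the 6 controls (median 0.556) and 6.43, 8.05 and 4.36 RPM in KO2 replicates 4, 5 and 6 (log2 difference 1.97, SE 0.42, adjusted p = 0.00711), Cldn5 rose by 0.99 (adjusted p = 0.0496), and Egfl7 fell by 0.89 on the log2 scale (adjusted p = 0.0394) and overlaps Agpat2 and Gm20532, which fell as well. Cdh5 was not called without KO2 replicate 5 (adjusted p = 0.0552). Cldn5 was not called against WT2 alone, with pseudocount 0.25, without a filter on low values, with median-of-ratios scaling, with quantile normalization, without WT2 replicate 3, without Het2 replicate 2, 3 or 4 or without KO2 replicate 4, 5 or 6 (adjusted p up to 0.326). Egfl7 was not called against WT2 alone, against Het2 alone, without a filter on low values, by limma-voom, without WT2 replicate 1, 2 or 3, without Het2 replicate 3 or without KO2 replicate 4, 5 or 6 (adjusted p up to 0.152). Pecam1, another defining marker of endothelium, differed by 0.20 (adjusted p = 0.817).

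Lcn2, an iron-binding lipocalin of the acute phase, was on the list of efferent ducts and epididymis because those ducts also make it. It was at 335 to 1012 RPM in the 6 controls (median 544) and at 1166, 1877 and 1738 RPM in KO2 replicates 4, 5 and 6. The lowest KO2 library stood above the highest control (log2 difference 1.45, SE 0.27, adjusted p = 0.00294), and the call held under each alternative run. WT2 replicates 2 and 3, at 941 and 1012 RPM, were the highest controls. Of the 9 tested genes of that list 1 rose and 1 fell (11.1% higher and 11.1% lower, against 5.55% and 4.05% of all genes). The only other call was Cst8, a cystatin, which fell. It was at 105 to 165 RPM in the 6 controls (median 139.7) and at 98.8, 77.3 and 87.2 RPM in KO2 replicates 4, 5 and 6 (log2 difference -0.65, SE 0.14, adjusted p = 0.00711). Cst8 was not called against WT2 alone or without KO2 replicate 5 (adjusted p up to 0.08). The cells that its reads came from were not tested.

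**Figure D3:**
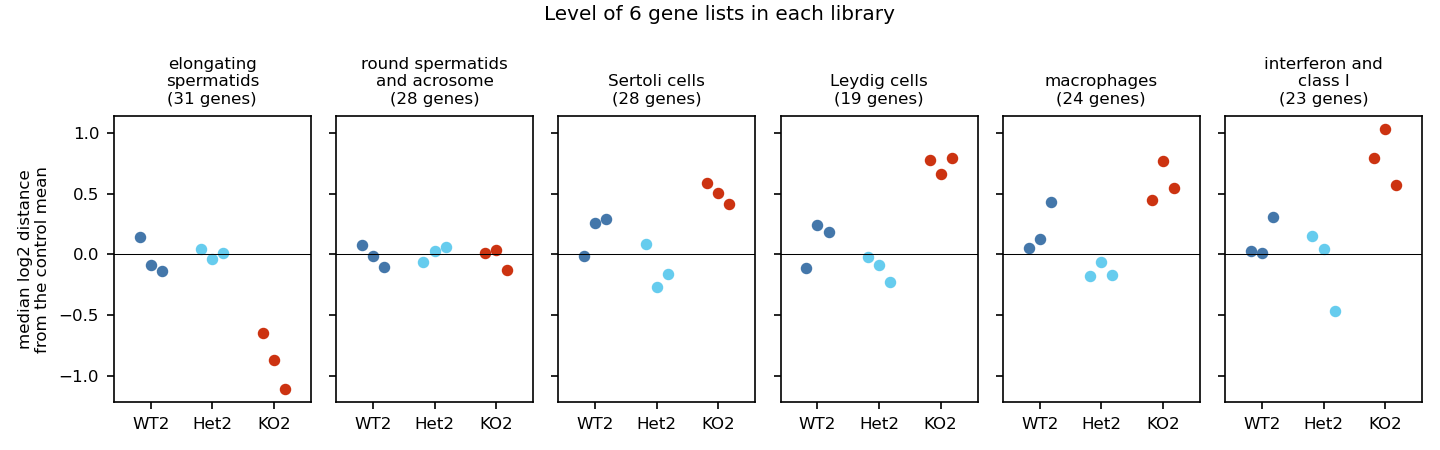
Median over the genes of a list of the log2 distance from the mean of the 6 controls (y axis), 1 point a library, for 6 lists in WT2, Het2 and KO2 (x axis). For elongating spermatids KO2 lies from -1.11 to -0.64, for round spermatids it overlaps the controls, and for the somatic and immune lists it lies above them, with WT2 replicate 3 closest for macrophages, at 0.43 against 0.45 in KO2 replicate 4.

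Genes of antigen presentation were higher in part. Of 23 genes of the interferon response and class I presentation 8 rose and none fell (median 0.81, 34.8% higher, against 5.55% of all genes). H2-K1, a class I molecule, was at 50.03 to 98.4 RPM in the 6 controls (median 85.3) and at 147, 186 and 149.8 RPM in KO2 replicates 4, 5 and 6. Each KO2 library exceeded each control (log2 difference 1.03, SE 0.17, adjusted p = 0.00117). H2-D1, another class I gene, was at 41.3 to 102 RPM in the 6 controls (median 74.5) and at 161, 159.9 and 127 RPM in KO2 replicates 4, 5 and 6 (log2 difference 1.09, SE 0.21, adjusted p = 0.00321). These genes belong to a family of close copies, among which reads could be split. B2m, the shared light chain, was at 23.1 to 39.7 RPM in the 6 controls (median 35.7) and 53, 69.2 and 45.9 RPM in KO2 replicates 4, 5 and 6 (log2 difference 0.71, SE 0.18, adjusted p = 0.0181, overlapping Patl2), and Psmb8, a subunit of the immunoproteasome, differed by 1.26 (adjusted p = 0.0101). Ifitm3 (0.97 (adjusted p = 0.0378)), Psmb9 (0.998 (adjusted p = 0.0438)) and Tap2 (0.99 (adjusted p = 0.0396)) also passed. B2m was not called against WT2 alone, with median-of-ratios scaling, with quantile normalization or without KO2 replicate 5 (adjusted p up to 0.137). Psmb8 was not called against WT2 alone or without KO2 replicate 5 (adjusted p up to 0.0673). Ifitm3 was not called against WT2 alone, without a filter on low values, with median-of-ratios scaling, with quantile normalization, without WT2 replicate 2, without Het2 replicate 2, 3 or 4 or without KO2 replicate 4, 5 or 6 (adjusted p up to 0.239). Psmb9 was not called against WT2 alone, without a filter on low values, with median-of-ratios scaling, with quantile normalization, without WT2 replicate 1, without Het2 replicate 2, 3 or 4 or without KO2 replicate 5 or 6 (adjusted p up to 0.276). Tap2 was not called against WT2 alone, without a filter on low values, with median-of-ratios scaling, with quantile normalization, without WT2 replicate 1 or 2, without Het2 replicate 2, 3 or 4 or without KO2 replicate 5 or 6 (adjusted p up to 0.25). Psmb8 overlaps Gm20496, Psmb9 overlaps Tap1, and Tap2 overlaps Gm15821 and Gm20496. The calls numbered 2 against WT2 alone, 9 against Het2 alone, 3 with median-of-ratios scaling, and 6, 2 and 4 without KO2 replicate 4, 5 or 6, and 5 without WT2 replicate 1, 5 without Het2 replicate 2, 4 without Het2 replicate 3 and 4 without Het2 replicate 4.

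Cytokine and NF-kB genes rose in 6 of 21 cases and fell in none (median 0.76, 28.6% higher, against 5.55% of all genes). Cxcl12, a chemokine made by stromal cells, was at 17.6 to 33.9 RPM in the 6 controls (median 28.8) and at 50.7, 53.9 and 56 RPM in KO2 replicates 4, 5 and 6, with the groups apart (log2 difference 0.94, SE 0.19, adjusted p = 0.00413). Il1r1, the receptor of interleukin 1, was at 5.12 to 18.1 RPM in the 6 controls (median 11.5) and at 26.4, 31.4 and 26.6 RPM in KO2 replicates 4, 5 and 6 (log2 difference 1.38, SE 0.31, adjusted p = 0.00913), and Tnfrsf1a, a receptor of TNF, differed by 0.90 (adjusted p = 0.0188). Nfkb2 of the NF-kB family (overlapping Psd), the necroptosis kinase Ripk3 and the adhesion molecule Icam1 differed by 1.59 (adjusted p = 0.0193), 1.06 (adjusted p = 0.0211) and 1.36 (adjusted p = 0.0488). Il1r1 was not called against WT2 alone or without KO2 replicate 5 (adjusted p up to 0.0731). Tnfrsf1a was not called against WT2 alone, with quantile normalization or without KO2 replicate 5 (adjusted p up to 0.154). Nfkb2 was not called against WT2 alone, without a filter on low values or without KO2 replicate 4 or 5 (adjusted p up to 0.129). Ripk3 was not called against WT2 alone, without a filter on low values, with quantile normalization or without KO2 replicate 4, 5 or 6 (adjusted p up to 0.148). Icam1 was not called against WT2 alone, with pseudocount 0.25, without a filter on low values, with median-of-ratios scaling, with quantile normalization, without WT2 replicate 1, without Het2 replicate 2, 3 or 4 or without KO2 replicate 4, 5 or 6 (adjusted p up to 0.314). Tnf itself had 0.42 RPM in WT2 replicate 3 and no reads in the other 8 libraries, and was not tested. The count of rises was 1 against WT2 alone, 8 against Het2 alone, 5 with median-of-ratios scaling, and 3, 1 and 4 without KO2 replicate 4, 5 or 6.

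Of 24 macrophage genes 3 rose and 1 fell (12.5% higher and 4.17% lower, against 5.55% and 4.05% of all genes). Here 23 differences were positive, and the median was 0.62, against 0.16 for all genes. Lyz2, lysozyme, was at 21.6 to 42.1 RPM in the 6 controls (median 25.4) and 60.3, 51 and 42.8 RPM in KO2 replicates 4, 5 and 6 (log2 difference 0.84, SE 0.21, adjusted p = 0.0151), and Tyrobp and C1qa rose by 1.24 (adjusted p = 0.0157) and 0.94 (adjusted p = 0.0183). Lyz2 was not called against WT2 alone or without KO2 replicate 4 or 5 (adjusted p up to 0.137). Tyrobp was not called against WT2 alone or without KO2 replicate 4 or 6 (adjusted p up to 0.127). C1qa was not called against WT2 alone, with quantile normalization or without KO2 replicate 4 or 5 (adjusted p up to 0.124). Aif1, listed as a macrophage gene, went against the other members and fell. It was at 359 to 397 RPM in the 6 controls (median 378) and at 231, 222 and 237 RPM in KO2 replicates 4, 5 and 6 (log2 difference -0.72, SE 0.09, adjusted p = 4.83e-05), and the call held under each alternative run. Cd68, a defining marker, lay inside the control range in each KO2 library (0.03 (adjusted p = 0.968)), and Ptprc, found on all leukocytes, was at 0 to 2.34 RPM in the 6 controls (median 0.455) and 3.77, 0.911 and 2.29 RPM in KO2 replicates 4, 5 and 6 (0.95 (adjusted p = 0.167)). The summed level of the macrophage list was 1336 to 1522 RPM in the controls and 1417 to 1448 RPM in KO2, and without Aif1 it was 958 to 1143 RPM in the controls and 1191 to 1217 RPM in KO2. The part of leukocytes in the rises of the immune genes was not tested, nor were the cells that the Aif1 reads came from.

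Other leukocyte lists were thinly measured. Of 15 lymphocyte genes 4 reached the limit for testing. Cd3d, a subunit of the T cell receptor complex, was the only call and fell (25% lower, against 4.05% of all genes). It was at 13.6 to 19.7 RPM in the 6 controls (median 16.2) and at 9.31, 6.98 and 8.72 RPM in KO2 replicates 4, 5 and 6 (log2 difference -0.91, SE 0.20, adjusted p = 0.00951). Cd3d was not called against WT2 alone or without KO2 replicate 5 (adjusted p up to 0.0647). Of 15 neutrophil and mast cell genes 9 were at 0 in all 9 libraries and 2 were tested. Of these 2 only Kit passed (50% higher, against 5.55% of all genes). None of 4 red cell genes passed by limma or limma-voom, nor had an unadjusted p under 0.05, and Hbb-b1 was at 3.3 to 14.3 RPM in the 6 controls (median 5.71) and 8.2, 8.81 and 5.62 RPM in KO2 replicates 4, 5 and 6. Of 19 complement genes C7 (0.56 (adjusted p = 0.0166)) and Masp1 (1.97 (adjusted p = 0.026)) rose and none fell (10.5% higher, against 5.55% of all genes). C7 was not called against WT2 alone, with median-of-ratios scaling, with quantile normalization or without KO2 replicate 4 or 5 (adjusted p up to 0.0862). Masp1 was not called against WT2 alone, against Het2 alone, with pseudocount 0.25, without a filter on low values, with quantile normalization or without KO2 replicate 4, 5 or 6 (adjusted p up to 0.124). C3, the central component, was at 2.02 to 13.7 RPM in the 6 controls (median 8.44) and 6.43, 28.2 and 18.9 RPM in KO2 replicates 4, 5 and 6, with KO2 replicate 4 inside the controls (1.15 (adjusted p = 0.155)).

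Of 10 tested cathepsins, proteases of the lysosome, 7 rose and none fell (median 0.73, 70% higher, against 5.55% of all genes). Ctsd was at 113 to 202 RPM in the 6 controls (median 145) and at 295, 319 and 244 RPM in KO2 replicates 4, 5 and 6, with the groups apart (log2 difference 0.90, SE 0.15, adjusted p = 0.00124, overlapping 6330512M04Rik). Ctsb was at 96.9 to 202 RPM in the 6 controls (median 120.1) and at 243, 249 and 201 RPM in KO2 replicates 4, 5 and 6 and overlapped the highest control (log2 difference 0.81, SE 0.17, adjusted p = 0.00706, overlapping Fdft1). Ctsa (1.12 (adjusted p = 0.00533), overlapping Neurl2 and Pltp), Ctsz (1.04 (adjusted p = 0.00724), overlapping Th1l), Ctsc (1.07 (adjusted p = 0.0226)), Ctsh (0.61 (adjusted p = 0.0429)) and Ctsl rose as well. Ctsb was not called against WT2 alone or without KO2 replicate 5 (adjusted p up to 0.0744). Ctsa was not called against WT2 alone or without KO2 replicate 5 (adjusted p up to 0.0587). Ctsz was not called against WT2 alone (adjusted p = 0.0576). Ctsc was not called against WT2 alone, without a filter on low values, with quantile normalization or without KO2 replicate 4, 5 or 6 (adjusted p up to 0.131). Ctsh was not called against WT2 alone, without a filter on low values, with median-of-ratios scaling, with quantile normalization, without WT2 replicate 1, without Het2 replicate 3 or 4 or without KO2 replicate 4, 5 or 6 (adjusted p up to 0.211). The count was 1 against WT2 alone, 8 against Het2 alone, 5 with median-of-ratios scaling, and 4, 2 and 5 without KO2 replicate 4, 5 or 6.

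Among the 36 serine proteases of the trypsin type, 4 were higher and 6 lower (median 0.06, 11.1% higher and 16.7% lower, against 5.55% and 4.05% of all genes). The falls were Prss37, Prss39, Prss51, Prss52, Prss55 and Prss58, of which several are known from sperm. Prss58 was at 118 to 143 RPM in the 6 controls (median 133) and at 73.3, 56.6 and 70.1 RPM in KO2 replicates 4, 5 and 6, below the controls in each (log2 difference -0.97, SE 0.12, adjusted p = 5.47e-05). Prss55, a sperm membrane protease, was at 94.5 to 119 RPM in the 6 controls (median 104) and at 64.7, 65.9 and 51.6 RPM in KO2 replicates 4, 5 and 6 (log2 difference -0.78, SE 0.13, adjusted p = 0.000732), and it overlaps Prss51. The rises were Prss35 (0.95 (adjusted p = 0.0157)), Klk1b21, Klk1b24 and Htra1. Htra1, which degrades matrix proteins, was at 11.4 to 41.6 RPM in the 6 controls (median 21.7) and at 66, 85 and 51.9 RPM in KO2 replicates 4, 5 and 6 (log2 difference 1.62, SE 0.31, adjusted p = 0.00344), and its span overlaps that of Fgfr2. Prss37 was not called against WT2 alone, without a filter on low values, by limma-voom, without WT2 replicate 3, without Het2 replicate 3 or 4 or without KO2 replicate 4 or 6 (adjusted p up to 0.202). Prss39 was not called against WT2 alone, with quantile normalization, without Het2 replicate 3 or without KO2 replicate 4 or 5 (adjusted p up to 0.133). Prss52 was not called against WT2 alone, against Het2 alone or without KO2 replicate 6 (adjusted p up to 0.152). Prss35 was not called against WT2 alone, with quantile normalization or without KO2 replicate 5 (adjusted p up to 0.15).

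Klk1b24, a glandular kallikrein, was at 17.4 to 63.6 RPM in the 6 controls (median 21.5) and at 144, 62.1 and 79.3 RPM in KO2 replicates 4, 5 and 6, with 1 control inside the KO2 range (log2 difference 1.71, SE 0.32, adjusted p = 0.00282). Klk1b21, a neighbour, was at 12.7 to 64.3 RPM in the 6 controls (median 29.2) and at 157, 68.8 and 85.8 RPM in KO2 replicates 4, 5 and 6 (log2 difference 1.72, SE 0.36, adjusted p = 0.00643). Klk1b21 was not called without KO2 replicate 4 (adjusted p = 0.0528). Kallikrein genes of this cluster are near-identical copies, so their values are uncertain. The same limit holds for Klk1b8, which was called lower, also in each alternative run. It is counted here among the elongating spermatid genes and not among the serine proteases. In Klk1b24 and Klk1b21 Het2 replicate 2 was the highest control and KO2 replicate 4 the highest of all.

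Protease inhibitors were led by Timp1. Timp1, an inhibitor of matrix metalloproteases, was at 0.607, 9.93 and 6.86 RPM in WT2 replicates 1 to 3, at 0.629, 0.551 and 0.674 RPM in Het2 and at 11.7, 30.2 and 18.2 RPM in KO2 replicates 4, 5 and 6. It was the largest rise by the rule used here (log2 difference 2.77, SE 0.57, adjusted p = 0.00536), but WT2 replicate 2 came close to KO2 replicate 4. Timp1 was not called against WT2 alone or without KO2 replicate 5 (adjusted p up to 0.0587). Syn1, which spans Timp1, has nearly the same values and is not a separate result. Of 11 metalloprotease and TIMP genes Mmp14 (0.97 (adjusted p = 0.0254)) and Mmp23 (1.25 (adjusted p = 0.0296)) also rose (27.3% higher, against 5.55% of all genes). Mmp14 was not called against WT2 alone, without a filter on low values, with median-of-ratios scaling, with quantile normalization or without KO2 replicate 5 or 6 (adjusted p up to 0.192). Mmp23 was not called against WT2 alone, with pseudocount 0.25, with quantile normalization, without WT2 replicate 1, without Het2 replicate 3 or without KO2 replicate 4, 5 or 6 (adjusted p up to 0.138). The rises of this list numbered 0 against WT2 alone, 3 against Het2 alone, 2 with median-of-ratios scaling, and 2, 0 and 1 without KO2 replicate 4, 5 or 6, and 5 without Het2 replicate 2. Of 31 serpins, cystatins and other inhibitors 3 rose, Timp1 among them, and 2 fell (9.68% higher and 6.45% lower, against 5.55% and 4.05% of all genes), shares not far from the background. Serpina5, an inhibitor of serine proteases, was at 104 to 239 RPM in the 6 controls (median 129) and 209, 305 and 282 RPM in KO2 replicates 4, 5 and 6, with overlap (log2 difference 0.85, SE 0.21, adjusted p = 0.0153), Cstb rose by 0.91 (adjusted p = 0.0165), and Cst13 (-0.37 (adjusted p = 0.0332)) fell beside Cst8. None of Serpina5, Cstb, Cst13 and Cst8 was called without KO2 replicate 5 or against WT2 alone.

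Relatives of Wfdc15a gave 2 calls. Of 22 genes of the WFDC family in the table, 8 were tested, 2 rose and none fell (median 0.56, 25% higher, against 5.55% of all genes). Spinlw1, now called Eppin, a sperm surface inhibitor, was at 22.2 to 42.9 RPM in the 6 controls (median 34.1) and 49.2, 53.6 and 51.9 RPM in KO2 replicates 4, 5 and 6 (log2 difference 0.68, SE 0.19, adjusted p = 0.0314). Wfdc1 was at 17.3 to 23.5 RPM in the 6 controls (median 19.1) and 44.3, 19.7 and 42.9 RPM in KO2 replicates 4, 5 and 6, with KO2 replicate 5 among the controls (log2 difference 0.74, SE 0.22, adjusted p = 0.046). Spinlw1 was not called against WT2 alone, without a filter on low values, with median-of-ratios scaling, with quantile normalization, without Het2 replicate 3 or 4 or without KO2 replicate 4, 5 or 6 (adjusted p up to 0.226). Wfdc1 was not called against WT2 alone, against Het2 alone, without a filter on low values, with median-of-ratios scaling, with quantile normalization, by limma-voom, without WT2 replicate 2, without Het2 replicate 2, 3 or 4 or without KO2 replicate 4 or 6 (adjusted p up to 0.213). Of 41 ADAM and ADAMTS proteases Adam10, the sheddase of many membrane proteins, rose (0.80 (adjusted p = 0.0111)) and Adam21 fell (-0.55 (adjusted p = 0.0454)), or 2.44% higher and 2.44% lower, against 5.55% and 4.05% of all genes. Adam10 was not called against WT2 alone or without KO2 replicate 5 (adjusted p up to 0.0783). Adam21 was not called against WT2 alone, against Het2 alone, without a filter on low values, by limma-voom, without WT2 replicate 1 or 3, without Het2 replicate 3 or 4 or without KO2 replicate 5 or 6 (adjusted p up to 0.192).

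None of 47 cytosolic ribosomal protein genes passed by limma or limma-voom, with 4 higher and 1 lower at an unadjusted p under 0.05 and a median of 0.02. Of 40 genes of oxidative phosphorylation 5 rose and none fell (median 0.17, 12.5% higher, against 5.55% of all genes), led by Atp5a1 at 328 to 402 RPM in the 6 controls (median 370.2) and 489.9, 478 and 524 RPM in KO2 replicates 4, 5 and 6 (log2 difference 0.42, SE 0.09, adjusted p = 0.00768). Their number was 0 against WT2 alone, 2 against Het2 alone, 0 with median-of-ratios scaling, and 1, 1 and 1 without KO2 replicate 4, 5 or 6, and 2 without WT2 replicate 1, 2 without WT2 replicate 2, 3 without Het2 replicate 2, 2 without Het2 replicate 3 and 1 without Het2 replicate 4. Of 33 proteasome genes 5 rose and 1 fell (15.2% higher and 3.03% lower, against 5.55% and 4.05% of all genes), the median was 0.30, and the groups did not overlap in 15 (45.5%, against 14.7% of all genes). Psma6 fell, at 659 to 836 RPM in the 6 controls (median 741) and 542, 565 and 562 RPM in KO2 replicates 4, 5 and 6 (log2 difference -0.42, SE 0.09, adjusted p = 0.00627), while Psmd14 rose by 0.58 (adjusted p = 0.00964). Psma6 was not called with quantile normalization (adjusted p = 0.0777). Psmd14 was not called with median-of-ratios scaling or without KO2 replicate 4 (adjusted p up to 0.0589). The proteasome genes that rose numbered 1 against WT2 alone, 6 against Het2 alone, 0 with median-of-ratios scaling, and 2, 1 and 2 without KO2 replicate 4, 5 or 6, and 2 without Het2 replicate 3.

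Of 29 heat shock and unfolded protein response genes 5 rose and 2 fell (median 0.20, 17.2% higher and 6.9% lower, against 5.55% and 4.05% of all genes). Herpud1, which takes part in degradation at the endoplasmic reticulum, fell, at 199 to 258 RPM in the 6 controls (median 236) and 144, 116 and 146 RPM in KO2 replicates 4, 5 and 6 (log2 difference -0.77, SE 0.11, adjusted p = 0.00034, overlapping Gm15890). Hspa1l, the heat shock protein of spermatids, fell by 0.63 on the log2 scale (adjusted p = 0.00402, overlapping Gm10501). Hsp90ab1 rose, at 267 to 387 RPM in the 6 controls (median 335) and 535, 477 and 452 RPM in KO2 replicates 4, 5 and 6 (log2 difference 0.56, SE 0.11, adjusted p = 0.00354), and so did Atf4, the factor of the integrated stress response (0.68 (adjusted p = 0.00583)). Atf4 was not called against WT2 alone (adjusted p = 0.0526). The rises numbered 1 against WT2 alone, 6 against Het2 alone, 3 with median-of-ratios scaling, and 3, 2 and 5 without KO2 replicate 4, 5 or 6. Of 17 immediate early genes only Klf6 passed (1.098 (adjusted p = 0.0156)). That makes 5.88% higher, against 5.55% of all genes, a share near the background. Klf6 was not called against WT2 alone or without KO2 replicate 4 or 5 (adjusted p up to 0.114).

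**Figure D4:**
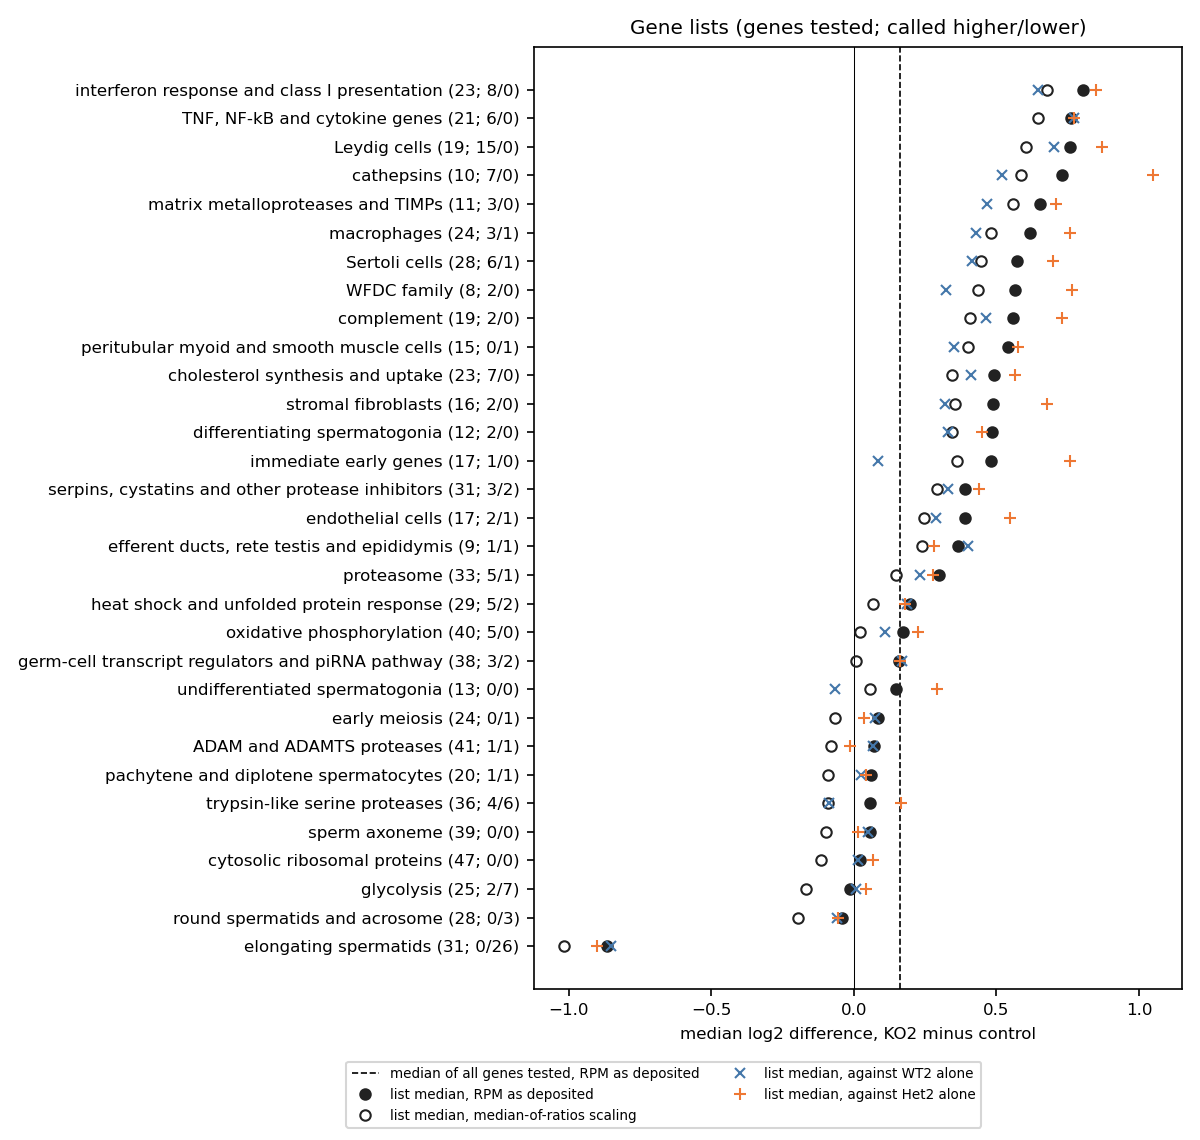
Median log2 difference of KO2 from the controls (x axis) for each list with at least 5 genes tested (y axis, with the number tested and the numbers called higher and lower), for RPM as deposited (filled circles), median-of-ratios scaling (open circles) and against WT2 (crosses) or Het2 (plus signs) alone. Elongating spermatids stand apart at -0.87, and the dashed line is the median of all genes at 0.16.

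The largest falls picked by the naming rule included several genes outside the lists. Defb33, a beta-defensin, was at 26 to 33.3 RPM in the 6 controls (median 30.0) and at 6.87, 8.35 and 7.58 RPM in KO2 replicates 4, 5 and 6. The KO2 libraries lay close together and far below the controls (log2 difference -1.84, SE 0.18, adjusted p = 8.17e-06). Olfr733, an olfactory receptor gene, was at 5.5 to 10.2 RPM in the 6 controls (median 8.34) and 1.33, 1.06 and 0.918 RPM in KO2 replicates 4, 5 and 6 (log2 difference -2.10, SE 0.28, adjusted p = 0.000112). Tppp2, a tubulin-binding protein of sperm, was at 61.7 to 93.4 RPM in the 6 controls (median 66.7) and 28.8, 27 and 20.8 RPM in KO2 replicates 4, 5 and 6 (log2 difference -1.48, SE 0.16, adjusted p = 2.39e-05). None of these overlapped between the groups, and the 3 calls held under each alternative run. Cyp2a12 (-1.60 (adjusted p = 0.000838)), AC113312.1 (-1.55 (adjusted p = 2.52e-05)), Fam131b (-1.55 (adjusted p = 0.000426)), Pik3cg (-1.50 (adjusted p = 0.0338)), Tmod4 (-1.46 (adjusted p = 0.0108)) and Chi3l7 (-1.41 (adjusted p = 0.0141)) followed, of which Fam131b overlaps Clcn1. Pik3cg was not called against Het2 alone, with pseudocount 5, without a filter on low values, by limma-voom, without WT2 replicate 1 or 2, without Het2 replicate 2 or without KO2 replicate 4, 5 or 6 (adjusted p up to 0.168). Tmod4 was not called against Het2 alone or without KO2 replicate 6 (adjusted p up to 0.0733). Chi3l7 was not called against Het2 alone, by limma-voom or without KO2 replicate 5 (adjusted p up to 0.0996).

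Several of the largest rises picked by the naming rule lay outside the lists too. Tgm2, a transglutaminase that cross-links proteins, was at 14.7 to 44.9 RPM in the 6 controls (median 22.1) and 106, 97.8 and 66.3 RPM in KO2 replicates 4, 5 and 6. Its KO2 libraries stood well above the controls (log2 difference 1.81, SE 0.30, adjusted p = 0.00106), and it overlaps Rprd1b. Cnn3, a calponin, was at 3.24 to 19.6 RPM in the 6 controls (median 6.76) and 33.9, 40.2 and 21.1 RPM in KO2 replicates 4, 5 and 6 (log2 difference 1.77, SE 0.39, adjusted p = 0.00834), and Tet2, an enzyme that oxidizes methylated cytosine, at 0.134 to 1.93 RPM in the 6 controls (median 0.86) and 7.09, 3.19 and 5.28 RPM in KO2 replicates 4, 5 and 6 (log2 difference 1.64, SE 0.37, adjusted p = 0.00927). Cldn23 (1.77 (adjusted p = 0.0061)), Sprn (1.69 (adjusted p = 0.00711)), Syde1 (1.66 (adjusted p = 0.0141)), Klhdc8b (1.64 (adjusted p = 0.0156)) and Masp1 rose as well. Sprn overlaps Mtg1 and had no reads in 4 controls. Cnn3 was not called against WT2 alone or without KO2 replicate 5 (adjusted p up to 0.079). Tet2 was not called without KO2 replicate 4 (adjusted p = 0.0601). Cldn23 was not called against WT2 alone or without KO2 replicate 5 (adjusted p up to 0.0657). Syde1 was not called against WT2 alone or without KO2 replicate 4 (adjusted p up to 0.132). Klhdc8b was not called against WT2 alone, without a filter on low values or without KO2 replicate 4, 5 or 6 (adjusted p up to 0.142).

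Libraries labelled KO of the 2 title numbers were then set side by side in a fit of all 13 libraries. Of 16235 genes 98 differed between KO2 and KO1, 0.604% of those tested, 54 higher and 44 lower in KO2. Wfdc15a was among the higher, at 31.5, 19.4 and 33.4 RPM in KO1 replicates 1 to 3 against the 54.1, 48.1 and 81.3 RPM of KO2 (log2 difference 1.096, SE 0.23, adjusted p = 0.0277, exact permutation p = 0.1, the lowest possible with 3 libraries in each group). The groups did not overlap. Het1, at 55.9 RPM, lay inside the range of the controls of number 2 for this gene. Of the 98 genes 20 lay on chromosome 2, the chromosome of Wfdc15a, which is 1.47% of the 1365 genes tested there. Single libraries moved these counts by more than 1.5 times. The higher genes numbered 32 and 22 without KO2 replicate 4 or 5 and 23 and 31 without KO1 replicate 2 or 3. The lower genes numbered 29 and 23 without KO2 replicate 5 or 6 and 29, 17 and 22 without KO1 replicate 1, 2 or 3. Limma-voom called 16 higher and 32 lower.

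Most of these genes also set Het1 apart from the controls of number 2. The single Het1 library lay below all 6 controls in 42 of the 54 genes higher in KO2 (77.8%) and in 16.3% of all genes tested. It lay above them in 26 of the 44 genes lower in KO2 (59.1%) and in 10.6% of all genes. For these genes a difference that goes with the title number and a difference between the KO groups cannot be told apart. Olfr1188 had 4.16 to 11.6 RPM in the controls of number 2, 7.98, 3.95 and 11.4 RPM in KO2, 0 RPM in Het1 and 0.14, 0 and 0 RPM in KO1. H2-K1 had 19.1 RPM in Het1 and 32.4, 40.1 and 41.4 RPM in KO1, all below each of its controls of number 2. Klk1b16, Klk1b22 and Tpbg were at 0.631, 0 and 0.757 RPM in Het1 and at means of 1.45, 0.389 and 0.8 RPM in KO1.

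The other genes that the naming rule gave for KO2 against KO1 were as follows. For Bpifb5, Ibsp and Afap1l2 no Het1 value is set beside them here. A difference that goes with the title number was therefore not separated from one between the KO groups for them. Bpifb5, of the family of BPI-fold proteins, was at 22.2, 20.3 and 46.2 RPM in KO2 replicates 4, 5 and 6 and at a mean of 1.42 RPM in KO1 (log2 difference 3.61, adjusted p = 0.0149). Ccl8, a chemokine, was at 0.443, 4.55 and 0.803 RPM in KO2 replicates 4, 5 and 6 and at 25.2, 15.4 and 16.4 RPM in KO1 (log2 difference -3.00, adjusted p = 0.00185), with 1.39 RPM in Het1. The Het1 value lay just above the highest control of number 2, 1.26 RPM. Ibsp and Afap1l2 were lower in KO2, with differences from KO1 of -3.83 and -2.51 on the log2 scale, and Ibsp was at 34.3 RPM in Het2 replicate 3 and at most 1.82 RPM in the other controls.

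The difference of the KO effect between the title numbers was tested as an interaction, with Het1 as the only control of number 1. It called 4 of 16235 genes (0.0246%), and 1000 had an unadjusted p under 0.05. Limma-voom called 0, and limma called 1 without KO1 replicate 2 and 2 without KO2 replicate 6. Col4a1, a collagen of basement membranes, was at 8.59 to 12.9 RPM in the 6 controls (median 11.8) and at 25, 21.9 and 19.3 RPM in KO2 replicates 4, 5 and 6, against 1.39 RPM in Het1 and 37.6 ± 4.18 RPM in KO1 (interaction -3.11, adjusted p = 0.000855). C4b, a complement component, was at 11.8 to 18.1 RPM in the 6 controls (median 13.2) and at 14.4, 35.8 and 18.2 RPM in KO2 replicates 4, 5 and 6, against 10.1 RPM in Het1 and 115 ± 17.1 RPM in KO1 (interaction -2.78, adjusted p = 0.0139). For C4b, KO2 replicate 4 lay inside the controls and replicate 5 well above them. Lamb2, a laminin chain, was at 36.2 to 65.7 RPM in the 6 controls (median 51.5) and at 76.4, 95.3 and 94.5 RPM in KO2 replicates 4, 5 and 6, against 14.3 RPM in Het1 and 105 ± 13.5 RPM in KO1 (interaction -1.94, adjusted p = 0.0374). No elongating spermatid or Leydig gene was called in this test.

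**Figure D5:**
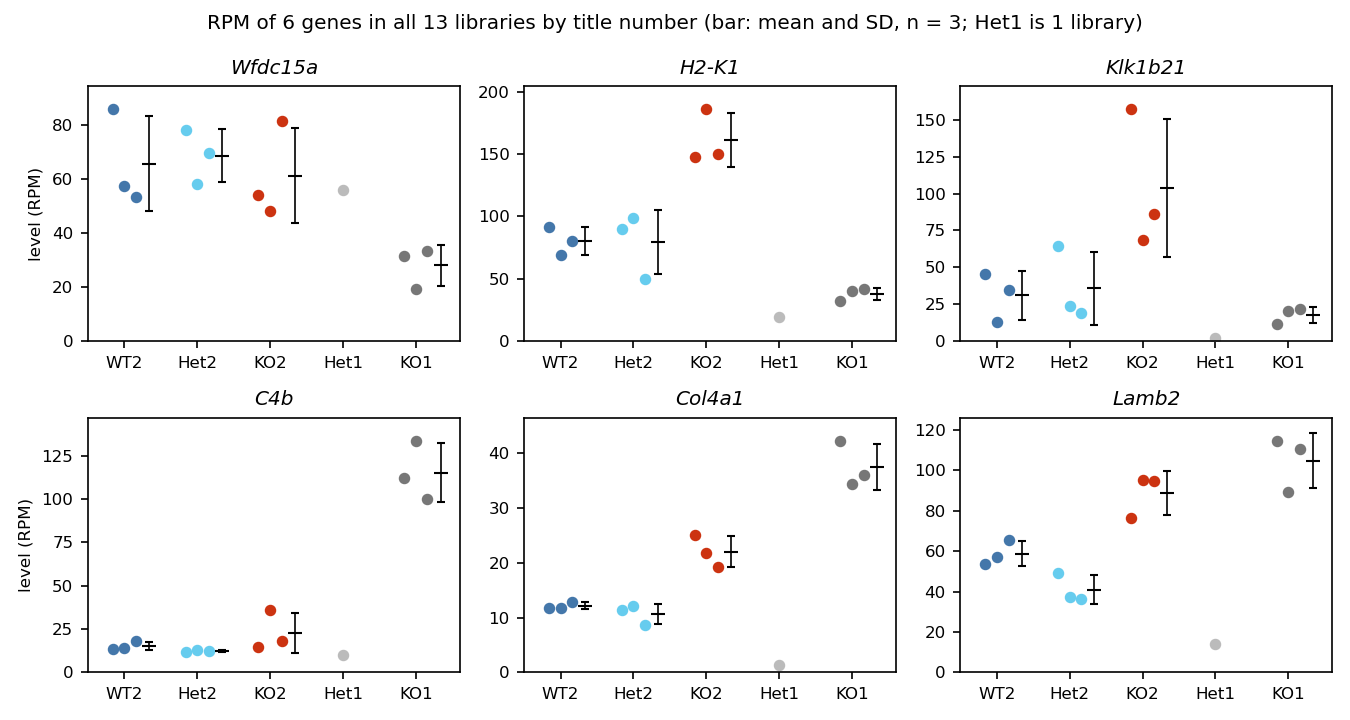
Level in RPM (y axis, from 0) of 6 genes in all 13 libraries by group (x axis), with the mean and SD (n = 3) as a bar beside each group of 3. Het1 is 1 library. H2-K1 is lower in Het1 and KO1 than in any library of number 2, C4b is higher in each KO1 library than in any other library, and Lamb2 is lowest in Het1.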

How the data were processed

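The authors deposited log2 RPM for 25965 genes in 13 libraries. Per the submitters' processing notes FastQC 0.11.8, Trim Galore 0.6.6 and mm10 were used. The sources used here name no aligner, counter or strand. Genes without reads carry a floor equal to 0.9 read. They were set to 0, and at least 99.96% of the other values were whole reads within 0.01 read. No pair of libraries agreed within sampling noise. PCR copies carry no molecular identifiers, so limits on a count of 0 (3 reads, 95% confidence) cover counting error only.

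Groups came from the labels. Differences were tested in limma 3.58.1 (R 4.3.3, trend option) on log2(RPM + 1) of genes that averaged 1 RPM or more, two-sided, with Benjamini-Hochberg adjustment over all genes tested. KO2 against control used 9 libraries and 2 groups. KO2 against KO1 and the interaction used 13 libraries and 4 groups. All fold changes are of RPM + 1, which understates those of low genes. Wfdc15a was also tested by exact permutation. The code of the fit was run on simulated counts with known changes and the same dispersion for all genes. That run does not test the calls made on the real libraries. Alternatives were 2 other pseudocounts, 2 other filters, median-of-ratios scaling, quantile normalization, limma-voom on the recovered reads, WT2 or Het2 alone as control, the fit of 13 libraries, and leaving out each library in turn.

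The members, the 34 gene lists (920 entries, 908 found in the table, 34 of them by an older symbol) and the rules were chosen with earlier results of these data known. The rule named Wfdc15a, the 12 largest rises and the 12 largest falls without overlap between the groups, up to 4 called genes of each list by adjusted p (2 by control mean in lists without a call), fixed markers, and the 5 largest differences each way in the other comparisons. In the rankings by size, genes with Gm-number, Rik, LOC or accession-like names were passed over. They were kept only where few other genes were left on a side. Further genes were named after their values were seen, to give the members behind a count. A few genes that the rule named are not reported here. Promoter sequences are those of RefSeq.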

Additional observations from a re-analysis of the deposited data

Results flagged for a closer look

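Among 136 genes checked, 6 had 1 control standing apart from the other 5, by a gap above Dixon's 95% critical value for their range on the log2 scale. Chance gives this in about 1 of 20 groups. Nr5a1 was at 56.1 RPM in WT2 replicate 2 and at 35.5 to 41.7 RPM in the other controls. Atp5b, a subunit of ATP synthase, was at 847 RPM in Het2 replicate 2 and at 942 to 984 RPM in the others. Wdr96 was at 678 RPM in the same library and at 789 to 835 RPM in the others. Zbtb16 was at 5.04 RPM in WT2 replicate 3 against 2.52 to 3.17 RPM. Ibsp, a bone matrix protein, was at 34.3 RPM in Het2 replicate 3 against 0 to 1.82 RPM. Col4a1 was at 8.59 RPM in Het2 replicate 4 against 11.4 to 12.9 RPM.

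The interaction term in limma rested on Het1 as a single library, which was assumed to vary like the others. By this term a Het1 value that stands apart and a KO effect that differs between the title numbers cannot be told apart. The log2 interaction was -3.11 for Col4a1, -2.78 for C4b and -1.94 for Lamb2.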

How the results depend on the processing

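Genes called higher numbered 895, and 576 without a filter on low values, 346 with median-of-ratios scaling, 452 with quantile normalization, 199 against WT2 alone and 269 to 1028 with 1 library left out. Genes called lower numbered 654, and 372 against WT2 alone and 403 to 661 with 1 library left out. For KO2 against KO1 the higher genes numbered 54, and 14 without a filter, 16 by limma-voom and 22 to 58 with 1 library left out, and the lower genes 44, and 69 with pseudocount 5 and 17 to 53 with 1 library left out. The interaction called 4 genes, and 7 with pseudocount 0.25, 0 by limma-voom and 1 to 5 with 1 library left out. The log2 difference of Wfdc15a went from -0.15 to 0.0037 without KO2 replicate 5 (adjusted p = 0.994 by limma), and lay between -0.37 and 0.0037 with 1 library left out. Of 109 named genes called in KO2 against control, 41 passed in every alternative run and 0 changed direction in any. Why counts moved was not tested, beyond that a left-out library leaves fewer samples and no filter adds genes tested. No paired analysis was possible because the labels name no pairs, and replicate numbers run on within each genotype. With 1 read worth up to 0.222 RPM, differences in genes near 1 RPM rest on few reads.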
